A study of Homo sapiens with 36 samples.

Results

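Messenger RNA of 10 genes of the splicing machinery was examined, 6 genes of serine/arginine-rich (SR) splicing factors (SRSF1, SRSF2, SRSF3, SRSF5, SRSF6 and SRSF7) and the 4 genes of the CDC-like kinases (CLK1, CLK2, CLK3 and CLK4). They were taken by symbol from the mRNA count table, in which 10 of 60591 rows matched, and all 10 genes passed the filter on low counts in all fits. The 18 mRNA libraries, of 36 libraries in the series, came from 2 human colorectal adenocarcinoma cell lines, Caco-2 and HT-29, in 6 groups of 3 replicates. Control cells of each line received 0.5 µl of dimethyl sulfoxide (DMSO) per ml of medium, and the treated groups received 300 µM cobalt chloride (CoCl2) or 5 µM of a derivative of oxyquinoline (Oxy) in the same volume of DMSO, each for 24 h. Cobalt and oxyquinoline compounds block prolyl hydroxylases and so stabilise hypoxia-inducible factor (HIF). Caco-2 had been kept for 21 days under conditions for differentiation and the labels state no such period for HT-29, so line and culture state cannot be told apart. The labels give the CoCl2 stock as made in water, whereas the study's methods state that DMSO was added to the CoCl2 medium too, and cobalt and solvent therefore cannot be told apart in that comparison. The study's methods describe the replicates as biological, without further detail, and HT-29 is described in the labels only.

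SR proteins bind short exonic sequences of pre-mRNA through their RNA recognition motifs and recruit the U1 and U2 small nuclear ribonucleoproteins to nearby splice sites through a domain rich in arginine-serine dipeptides. The CLK kinases sit in the nucleus and phosphorylate that domain, which releases SR proteins from nuclear speckles. The family is known for autoregulation: most SR genes carry a conserved exon with an early stop codon whose inclusion sends the transcript to nonsense-mediated decay, and CLK1 and CLK4 keep a pool of transcripts with retained introns that are spliced under heat or osmotic stress. GENCODE v44 lists transcripts of the decay or retained-intron class for 9 of the 10 genes and none for CLK2. Of 14 CLK1 transcripts, 8 were classed as retained intron and 2 as subject to decay. For SRSF7, 6 of 12 transcripts were in the decay class. Counts per gene add all of these forms together, so that a change in a gene's count does not tell which form changed.

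The promoters of the kinases and of 2 SR genes are shown because these genes moved together, or in opposite directions, in the results that follow. RefSeq (GRCh38.p14) gave a start site for 9 of the 10 genes, 12 start sites in all, since SRSF7, CLK1 and CLK3 had 2 each. From the 250 bases before each start, the longest stretch without an annotated exon is printed 5′ to 3′ on the gene's strand, with matches to ACGTG (the core that HIF binds), GAANNTTC (a pair of heat shock units) or TGCGCNC (the core of a metal response element) in capitals; both strands were searched, and matches may overlap.
CLK1 (chr2:200864692-200864908, minus strand): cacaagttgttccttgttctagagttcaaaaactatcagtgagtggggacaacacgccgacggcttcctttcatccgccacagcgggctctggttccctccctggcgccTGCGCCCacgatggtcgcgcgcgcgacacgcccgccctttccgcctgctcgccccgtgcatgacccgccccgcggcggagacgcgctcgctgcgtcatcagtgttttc
CLK2 (chr1:155273505-155273754, minus strand): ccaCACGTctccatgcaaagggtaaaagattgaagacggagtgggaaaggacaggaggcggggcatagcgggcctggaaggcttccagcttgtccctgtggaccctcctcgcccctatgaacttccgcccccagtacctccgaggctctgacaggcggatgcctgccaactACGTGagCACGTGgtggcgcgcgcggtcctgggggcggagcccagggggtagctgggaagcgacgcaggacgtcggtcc
CLK3 (chr15:74615597-74615795, plus strand): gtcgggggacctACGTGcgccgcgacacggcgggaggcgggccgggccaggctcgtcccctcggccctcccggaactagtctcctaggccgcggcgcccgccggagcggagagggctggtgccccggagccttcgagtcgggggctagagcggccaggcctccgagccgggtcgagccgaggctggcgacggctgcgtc
CLK4 (chr5:178627113-178627300, minus strand): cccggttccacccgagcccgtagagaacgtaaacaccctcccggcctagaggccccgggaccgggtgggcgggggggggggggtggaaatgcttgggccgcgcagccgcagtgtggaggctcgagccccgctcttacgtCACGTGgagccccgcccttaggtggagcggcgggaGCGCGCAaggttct
SRSF3 (chr6:36594112-36594352, plus strand): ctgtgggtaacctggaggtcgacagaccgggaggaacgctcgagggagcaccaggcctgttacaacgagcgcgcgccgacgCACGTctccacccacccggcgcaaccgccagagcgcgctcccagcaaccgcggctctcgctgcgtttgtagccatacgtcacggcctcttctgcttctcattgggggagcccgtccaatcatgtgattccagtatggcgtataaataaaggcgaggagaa
SRSF6 (chr20:43457646-43457892, plus strand): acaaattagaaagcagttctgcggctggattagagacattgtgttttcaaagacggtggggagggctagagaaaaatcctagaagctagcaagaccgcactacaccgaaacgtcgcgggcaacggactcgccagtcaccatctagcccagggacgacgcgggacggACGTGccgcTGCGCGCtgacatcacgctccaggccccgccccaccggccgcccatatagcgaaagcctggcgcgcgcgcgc
The CLK2 window held 4 matches to ACGTG, 2 of them from the 2 strands of 1 palindrome, and the CLK4 window held 2 from another such palindrome and 1 match to TGCGCNC. For CLK3, the window of the second start held 1 match to ACGTG and that of the first start held 0 matches to the 3 motifs. The CLK1 window held 1 match to TGCGCNC, SRSF3 held 1 to ACGTG, and SRSF6 held 1 of each. Among the windows not printed, that of SRSF1 held 1 match to TGCGCNC and those of SRSF5 and SRSF7 held 0 matches. No member window matched GAANNTTC. Over all 35116 RefSeq windows of 250 bases, 18.5% held ACGTG, 5.78% held GAANNTTC and 16.8% held TGCGCNC. A match is a description of letters and was not tested as a binding site.

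The libraries held 12925719 to 22332639 counts. Levels are given as CPM (counts divided by the library's total, scaled to 1e6), which used library sizes multiplied by TMM (trimmed mean of M values) factors. Their mean factor was 1.19 in HT-29 control, 0.770 in HT-29 CoCl2 and 1.09 in HT-29 Oxy, and 1.12, 0.894 and 1.00 in the same groups of Caco-2. Scaling by library size alone moved the all-gene median of log2 fold changes by -0.32 (CoCl2) and -0.15 (Oxy) in Caco-2 and by -0.63 and -0.14 in HT-29, so a member's small change is a change relative to the bulk of genes, and its sign under that scaling is given where it turned. The 20 most abundant genes took 14.3% to 14.7% of counts in HT-29 CoCl2 and 8.80% to 9.88% in HT-29 control, and the part of this shift in the results was not tested. All 7 epithelial markers exceeded 1 CPM in every library, while 4 of 5 enterocyte markers did so in Caco-2 and 1 or 2 of 5 in HT-29. The immune markers PTPRC and CD3E summed to under 1 CPM in every library (0 to 0.939 CPM). Fibroblast markers summed to 14.7 to 26.5 CPM in Caco-2 and 1.28 to 6.17 CPM in HT-29, and endothelial markers to 2.06 to 12.4 CPM and 0.299 to 2.32 CPM.

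In untreated cells 5 of the 6 SR genes had higher mean levels than any kinase on the length-scaled scale, log2(RPKM + 1) as the authors deposited it, in which reads are scaled by gene length and library size, and SRSF1 lay below CLK1 and CLK2 in Caco-2. In Caco-2 control the order was SRSF5 (6.15 ± 0.055, SD, n = 3), SRSF6 (6.13 ± 0.055), SRSF2 (5.60 ± 0.034), SRSF7 (5.12 ± 0.059), SRSF3 (4.86 ± 0.10), CLK1 (4.79 ± 0.037), CLK2 (3.80 ± 0.048), SRSF1 (3.43 ± 0.17), CLK4 (2.93 ± 0.045) and CLK3 (1.80 ± 0.036). The neighbours SRSF5 and SRSF6, and SRSF3 and CLK1, lay within their SDs of each other. In HT-29 control SRSF6 led (5.84 ± 0.016), followed by SRSF3 (5.60 ± 0.026), and SRSF2, SRSF7 and SRSF5 lay between 5.14 ± 0.043 and 5.22 ± 0.037; CLK4 was lowest (1.85 ± 0.031). CLK3 stood low on this scale partly by its length: the deposited values imply a divisor of 20337 bases for CLK3, near its summed annotated exons of 19697 bases, against 2961 to 7881 bases for the other 9 genes.

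Between the untreated lines 9 of 10 members differed at an FDR under 0.05 (the Benjamini-Hochberg adjusted p of edgeR's quasi-likelihood test over all genes tested), 4 higher and 5 lower in HT-29, where 39.5% and 39.6% of 17921 genes did so. Under the study's call rule, which adds an absolute log2 fold change over 1, 0 members were called higher against 21.6% of genes, and 1 was called lower against 24.2%. The called member was CLK4, at 20.9 ± 0.631 CPM in HT-29 and 50.5 ± 1.84 CPM in Caco-2 on a scaling over all 18 libraries (SD, n = 3; log2 fold change -1.27, SE 0.080, edgeR FDR = 2.98e-16). SRSF5, at 186 ± 3.87 against 363 ± 12.8 CPM, fell just short of the fold threshold (log2 fold change -0.96, SE 0.068), and it was called under DESeq2, DESeq2's size factors and the replicate block. SRSF3 was higher in HT-29 (0.83, SE 0.062), as were CLK3 (0.35, SE 0.064), SRSF1 (0.25, SE 0.093) and SRSF7 (0.17, SE 0.064), and CLK2 (-0.33, SE 0.075), SRSF2 (-0.31, SE 0.067) and SRSF6 (-0.22, SE 0.063) were lower. SRSF1 and SRSF7 were not past the FDR with DESeq2 size factors (0.18 and 0.097), in DESeq2 or with the replicate block, SRSF1 also not without Caco-2 replicate 2 (0.15) and SRSF7 not without Caco-2 replicate 1 or HT-29 replicate 3 (0.14 in each). For CLK1 no difference was detected, with a 95% interval of the difference of -0.14 to 0.13 on the log2 scale.

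**Figure D1:**
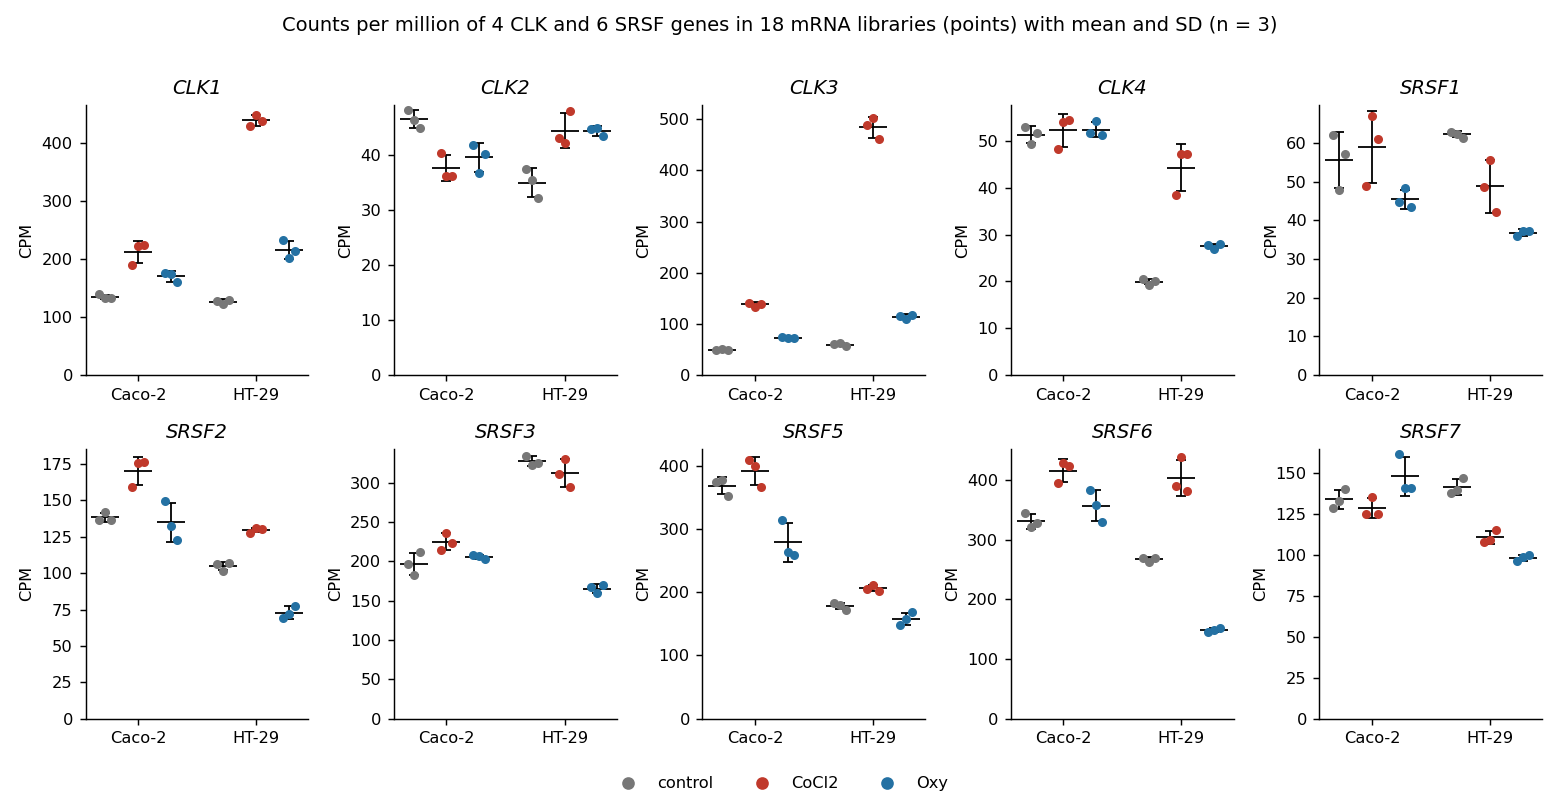
Level of each gene in CPM (y axes, from 0) in the 18 mRNA libraries, with points for libraries, horizontal marks for group means and bars for the SD (n = 3), coloured by treatment, with TMM scaling within each line. CLK3 stood highest in the 3 CoCl2 libraries of HT-29, at 462 to 502 CPM, and SRSF3 and SRSF6 stood lowest in the 3 Oxy libraries of HT-29.

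Of the kinases, CLK1 and CLK3 rose with both agents in both lines, most for CLK3 with CoCl2 in HT-29 (8.13-fold, and 5.25-fold with library sizes alone). CLK2 and CLK4 rose in HT-29, though the rise of CLK2 with CoCl2 turned with library sizes alone, and in Caco-2 CLK2 fell and CLK4 did not pass the test. In Caco-2 with CoCl2, 5 of 10 members were higher and 1 lower at an FDR under 0.05, where 31.6% and 33.1% of 16034 genes tested were, and the members called numbered 1 higher and 0 lower, beside 9.13% and 14.2% of genes (past the FDR with library sizes alone: 2 higher and 4 lower). With Oxy in Caco-2, 2 of 10 members were higher and 3 lower at an FDR under 0.05, where 25.7% and 24.7% of 16034 genes tested were, and the members called numbered 0 higher and 0 lower, beside 4.43% and 7.27% of genes (with library sizes alone: 1 higher and 4 lower past the FDR). In HT-29 with CoCl2, 7 of 10 members were higher and 2 lower at an FDR under 0.05, where 40.7% and 42.2% of 15812 genes tested were, and the members called numbered 3 higher and 0 lower, beside 17.4% and 23.9% of genes (with library sizes alone: 3 higher and 6 lower past the FDR). With Oxy in HT-29, 4 of 10 members were higher and 6 lower at an FDR under 0.05, where 34.7% and 34% of 15812 genes tested were, and the members called numbered 0 higher and 0 lower, beside 9.5% and 7.57% of genes (with library sizes alone: 4 higher and 6 lower past the FDR). The called members were CLK3 in Caco-2 and CLK1, CLK3 and CLK4 in HT-29, all with CoCl2. Both agents were set against the same control libraries of a line, and in bulk RNA a change in the number of cells with a transcript and a change in its level per cell cannot be told apart.

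CLK3, one of the nuclear kinases that phosphorylate SR proteins, was measured in Caco-2 at 49.6, 51.6 and 48.3 CPM in control, 142, 134 and 139 CPM with CoCl2 and 74.4, 72.8 and 73.3 CPM with Oxy. The 3 groups did not overlap, with CoCl2 highest and control lowest. It rose 2.77-fold with CoCl2 (log2 fold change 1.47, SE 0.075, edgeR FDR = 1.76e-14) and 1.48-fold with Oxy (log2 fold change 0.56, SE 0.075, edgeR FDR = 1.16e-06). In HT-29 it stood at 60.2, 62.6 and 56.1 CPM in control, 488, 502 and 462 CPM with CoCl2 and 117, 109 and 117 CPM with Oxy. The order was the same as in Caco-2, again without overlap. The rise in HT-29 was 8.13-fold with CoCl2 (log2 fold change 3.02, SE 0.054, edgeR FDR = 6.61e-26; 2.39 with library sizes alone) and 1.92-fold with Oxy (log2 fold change 0.94, SE 0.054, edgeR FDR = 1.99e-14).

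CLK1, the best studied kinase of the family, held 139, 133 and 133 CPM in control Caco-2, 189.9, 222 and 225 CPM with CoCl2 and 177, 174 and 160.0 CPM with Oxy. Each treated library exceeded each control library, and CoCl2 exceeded Oxy. The rise was 1.57-fold with CoCl2 (log2 fold change 0.65, SE 0.077, edgeR FDR = 8.15e-08; 0.33 with library sizes alone) and 1.26-fold with Oxy (log2 fold change 0.33, SE 0.077, edgeR FDR = 0.000913; with library sizes alone 0.18, edgeR FDR = 0.0506). In HT-29 the values were 127, 122 and 130.1 CPM in control, 430.0, 449 and 438 CPM with CoCl2 and 233, 202 and 214 CPM with Oxy, with no overlap between any groups. CLK1 rose 3.46-fold with CoCl2 there (log2 fold change 1.79, SE 0.052, edgeR FDR = 1.47e-21; 1.16 with library sizes alone) and 1.71-fold with Oxy (log2 fold change 0.77, SE 0.051, edgeR FDR = 4.08e-13).

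CLK4, the closest relative of CLK1, did not pass the test in Caco-2, at 53.0, 49.4 and 51.7 CPM in control, 48.2, 54.1 and 54.6 CPM with CoCl2 and 51.7, 54.2 and 51.2 CPM with Oxy. The groups overlapped, and the 95% intervals of the log2 fold change ran from -0.14 to 0.20 for CoCl2 and from -0.14 to 0.20 for Oxy. With library sizes alone the CoCl2 value turned to -0.29 and passed (edgeR FDR = 0.0035). In HT-29 its control libraries held 20.5, 19.3 and 20.1 CPM, the CoCl2 libraries 38.5, 47.2 and 47.2 CPM and the Oxy libraries 27.7, 27.0 and 28.0 CPM. The 3 groups were separate, with CoCl2 highest. CLK4 rose 2.22-fold with CoCl2 (log2 fold change 1.15, SE 0.074, edgeR FDR = 6.92e-14) and 1.38-fold with Oxy (log2 fold change 0.46, SE 0.075, edgeR FDR = 4.92e-06). Its CoCl2 value was under the fold threshold with library sizes alone (0.52) and in limma (0.83).

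CLK2 moved in opposite directions in the lines, apart from its value with CoCl2 in HT-29 under library sizes alone. It stood at 48.3, 46.3 and 45.0 CPM in Caco-2 control, 40.3, 36.3 and 36.2 CPM with CoCl2 and 41.9, 36.7 and 40.2 CPM with Oxy, with both treated groups below control. It fell with CoCl2 (log2 fold change -0.31, SE 0.088, edgeR FDR = 0.00346) and with Oxy (log2 fold change -0.23, SE 0.087, edgeR FDR = 0.0286; -0.63 and -0.39 with library sizes alone), the latter past the threshold only narrowly: it was lost without any single control library, without Oxy replicate 2 or 3 (values of -0.28 to -0.18 with 1 library left out), in DESeq2 and with no filter. In HT-29 the control libraries held 37.4, 35.4 and 32.2 CPM, the CoCl2 libraries 43.0, 42.2 and 48.1 CPM and the Oxy libraries 44.8, 44.9 and 43.4 CPM. CLK2 rose there with Oxy (log2 fold change 0.35, SE 0.063, edgeR FDR = 2.07e-05) and with CoCl2 (log2 fold change 0.35, SE 0.065, edgeR FDR = 2.32e-05), though with library sizes alone the Oxy value was 0.21 and the CoCl2 value turned to -0.28, past the FDR.

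**Figure D2:**
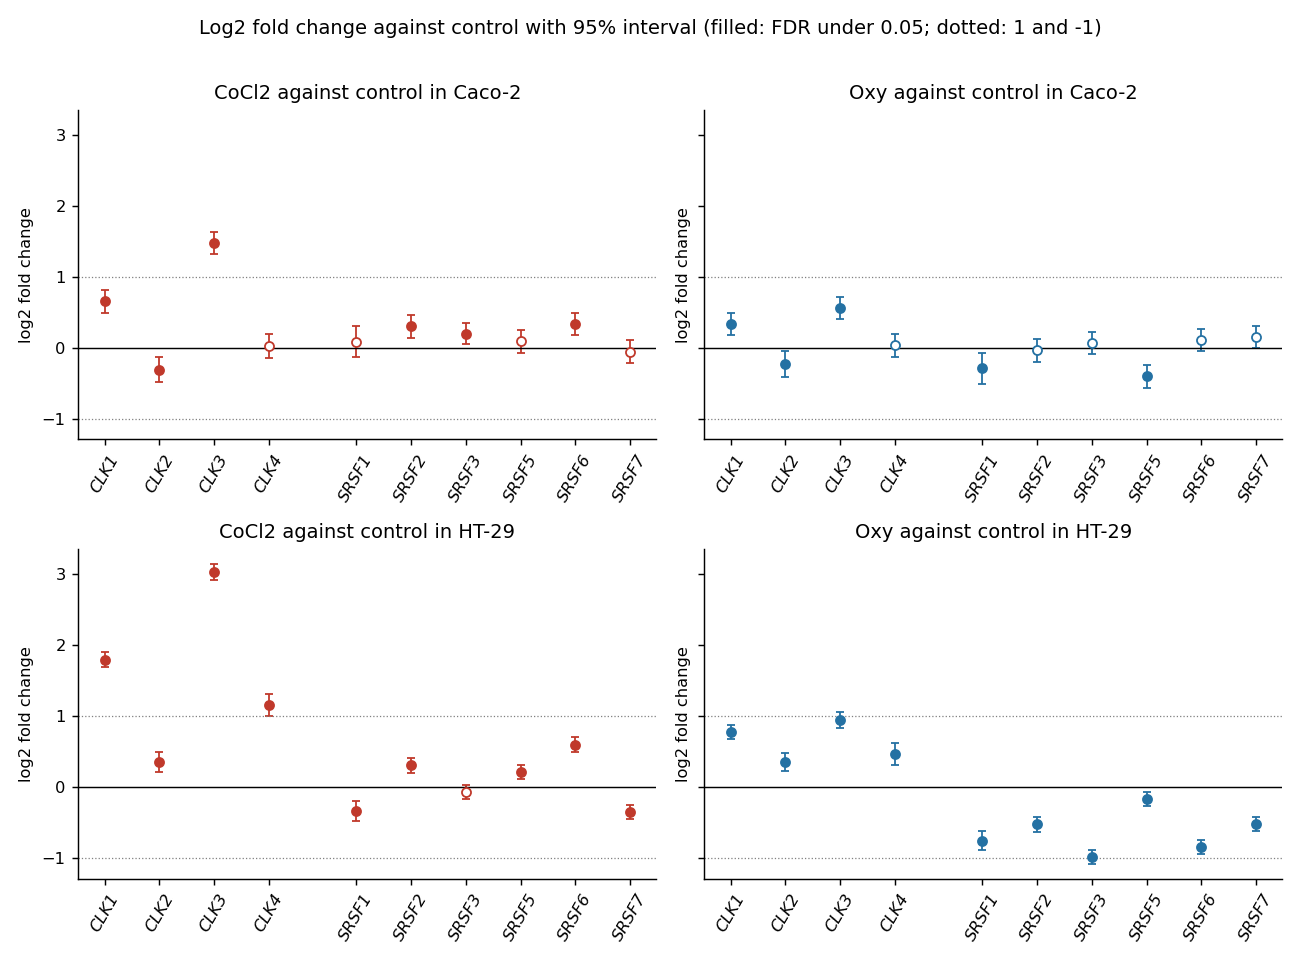
Log2 fold change against control (y axes) of the 4 CLK and 6 SRSF genes for each agent and line, with 95% intervals; filled points have an FDR under 0.05 and dotted lines mark 1 and -1. CLK3 reaches 3.02 with CoCl2 in HT-29, and all 6 SRSF genes lie below 0 with Oxy in HT-29, between -0.98 and -0.17.

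In HT-29 the values of the SR genes differed by agent. With Oxy all 6 fell, with a median log2 fold change of -0.64 where that of all genes was 0.0057, and with CoCl2 SRSF2, SRSF5 and SRSF6 rose, SRSF1 and SRSF7 fell and SRSF3 did not pass the test with TMM factors (median 0.071 against -0.032 for all genes), and the 3 rises turned below 0 with library sizes alone (median of the 6 genes -0.56). In Caco-2 SRSF2, SRSF3 and SRSF6 rose with CoCl2, of which SRSF2 and SRSF3 turned with library sizes alone, SRSF1 and SRSF5 fell with Oxy, and the other values did not pass. None of the SR genes was called in these comparisons.

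SRSF3, the smallest SR protein, which also promotes mRNA export, had the largest fall. In HT-29 it stood at 334, 323 and 325 CPM in control, 311, 331 and 295 CPM with CoCl2 and 167, 159 and 169 CPM with Oxy. The Oxy libraries lay far below the others, and CoCl2 overlapped control. The fall with Oxy was to 0.505 of control (log2 fold change -0.98, SE 0.048, edgeR FDR = 8.05e-16), just inside the fold threshold; with library sizes alone (-1.12), with DESeq2's size factors and in DESeq2 it passed -1 and was called. With CoCl2 the log2 fold change was -0.068, with a 95% interval of -0.17 to 0.030. It was lower and past the FDR in the fit over 18 libraries (-0.18, edgeR FDR = 0.0111), in limma (-0.16) and with library sizes alone (-0.70). In Caco-2 the values were 196, 182 and 211 CPM in control, 215, 236 and 224 CPM with CoCl2 and 208, 206 and 202 CPM with Oxy. The small rise with CoCl2 (log2 fold change 0.19, SE 0.073, edgeR FDR = 0.0229) was lost without control replicate 1 (0.19), control replicate 2 (0.14) or CoCl2 replicate 2 (0.16), and with library sizes alone it was -0.13. That rise also did not pass in limma (0.15).

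SRSF6, an SR protein that acts in alternative splicing of tau and other transcripts, rose with CoCl2 and fell with Oxy in HT-29, although with library sizes alone its CoCl2 value turned. In HT-29 it was measured at 269, 263 and 269 CPM in control, 391, 438 and 382 CPM with CoCl2 and 145, 149 and 152 CPM with Oxy. The 3 groups did not overlap, with CoCl2 above and Oxy below control. The CoCl2 change (log2 fold change 0.59, SE 0.049, edgeR FDR = 1.69e-11) was -0.039 with library sizes alone, and the fall with Oxy (log2 fold change -0.85, SE 0.050, edgeR FDR = 4.52e-14) kept its direction. In Caco-2 it held 345, 320.4 and 327 CPM in control, 394, 429 and 424 CPM with CoCl2 and 383, 358 and 330.4 CPM with Oxy. It rose with CoCl2 (log2 fold change 0.33, SE 0.073, edgeR FDR = 0.000387), by 0.0086 with library sizes alone, and Oxy overlapped control.

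SRSF2, also known as SC35, had smaller changes, of which those with CoCl2 turned with library sizes alone. Its HT-29 values were 106, 102 and 107 CPM in control, 128, 131 and 130.3 CPM with CoCl2 and 69.0, 72.2 and 77.4 CPM with Oxy, without overlap. It rose with CoCl2 (log2 fold change 0.30, SE 0.050, edgeR FDR = 4.19e-06), with -0.33 under library sizes alone, and fell with Oxy (log2 fold change -0.53, SE 0.051, edgeR FDR = 8.49e-10). In Caco-2 the libraries held 136, 142 and 137 CPM in control, 159, 176 and 176 CPM with CoCl2 and 149.5, 133 and 123 CPM with Oxy. The CoCl2 libraries lay above control (log2 fold change 0.30, SE 0.078, edgeR FDR = 0.0017; -0.021 with library sizes alone), and Oxy overlapped control, though with library sizes alone it was lower (-0.19, edgeR FDR = 0.0332).

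SRSF1, the founding member of the family and a known oncoprotein, fell with both agents in HT-29, from 63.0, 62.4 and 61.4 CPM in control to 48.8, 55.7 and 42.1 CPM with CoCl2 and 35.9, 37.4 and 37.2 CPM with Oxy. Both treated groups lay below control. The log2 fold change was -0.76, SE 0.067 with Oxy (edgeR FDR = 1.28e-10) and -0.34, SE 0.067 with CoCl2 (edgeR FDR = 3.99e-05; -0.98 with library sizes alone). In Caco-2 it had the largest SE of the 10 members, at 62.1, 47.8 and 57.1 CPM in control, 48.8, 67.0 and 61.0 CPM with CoCl2 and 44.8, 48.3 and 43.5 CPM with Oxy. All groups overlapped control there, and the fall with Oxy (log2 fold change -0.29, SE 0.11, edgeR FDR = 0.0252) was lost without control replicate 1 (-0.20), control replicate 3 (-0.27) or Oxy replicate 3 (-0.25). This fall also did not pass in DESeq2 (-0.27).

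SRSF7, close to SRSF3 in its RNA-binding domain and carrying a zinc knuckle, also fell with both agents in HT-29, from 138, 139.7 and 147 CPM in control to 108, 109 and 115 CPM with CoCl2 (log2 fold change -0.35, SE 0.049, edgeR FDR = 2.52e-07; -0.99 with library sizes alone) and 96.3, 98.9 and 99.9 CPM with Oxy (log2 fold change -0.52, SE 0.048, edgeR FDR = 3.07e-10). The 3 groups were separate. In Caco-2 it did not pass the test with either agent, at 129, 133 and 140.3 CPM in control, 125, 136 and 125 CPM with CoCl2 and 162, 141 and 141 CPM with Oxy. The 95% intervals were -0.22 to 0.099 for CoCl2 and -0.013 to 0.30 for Oxy, and with library sizes alone SRSF7 was lower with CoCl2 (-0.38, edgeR FDR = 9.72e-05).

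SRSF5, once described as an insulin-responsive splicing factor, fell with Oxy in both lines. The Caco-2 libraries held 375, 379 and 353 CPM in control, 409.6, 399.9 and 368 CPM with CoCl2 and 315, 264 and 259 CPM with Oxy. The Oxy libraries lay below both other groups (log2 fold change -0.40, SE 0.079, edgeR FDR = 0.000171), and the interval for CoCl2 was -0.075 to 0.25. In HT-29 it held 183, 180.2 and 172 CPM in control, 205, 212 and 202 CPM with CoCl2 and 149, 158 and 168 CPM with Oxy, without overlap. Its fall with Oxy was the smallest of the 6 (log2 fold change -0.17, SE 0.050, edgeR FDR = 0.00328; -0.31 with library sizes alone), and its rise with CoCl2 (log2 fold change 0.21, SE 0.050, edgeR FDR = 0.000391) was -0.42 with library sizes alone and did not pass in a fit over 18 libraries (0.10).

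The agents were compared directly at their own doses, which differ (300 µM CoCl2 and 5 µM Oxy), over the same 24 h. Most members stood higher with CoCl2 relative to the bulk of genes, by the largest margins for CLK3, SRSF6 and CLK1 in HT-29. In Caco-2 6 of 10 members were higher and 1 lower at an FDR under 0.05, where 24.4% and 25.2% of 16034 genes tested were, and the members called numbered 0 higher and 0 lower, beside 5.21% and 6.44% of genes (with library sizes alone: 2 higher and 2 lower past the FDR). In HT-29 9 of 10 members were higher and 0 lower at an FDR under 0.05, where 37.1% and 40.6% of 15812 genes tested were, and the members called numbered 3 higher and 0 lower, beside 10.8% and 19.2% of genes (with library sizes alone: 6 higher and 3 lower past the FDR). The 3 called genes were CLK3 (log2 fold change 2.08, SE 0.051, edgeR FDR = 1.44e-22), SRSF6 (log2 fold change 1.44, SE 0.051, edgeR FDR = 2.74e-19) and CLK1 (log2 fold change 1.02, SE 0.050, edgeR FDR = 3.66e-16), of which SRSF6 and CLK1 had 0.94 and 0.52 with library sizes alone. CLK1 was also under the fold threshold with no filter (0.97), in the fit over 18 libraries (0.93) and in limma (0.94). CLK4 (0.68, SE 0.071), SRSF2 (0.83, SE 0.052) and SRSF3 (0.92, SE 0.049) were also higher with CoCl2 in HT-29, by 0.19, 0.33 and 0.42 with library sizes alone. The smaller differences there of SRSF1 (0.41, SE 0.071), SRSF5 (0.38, SE 0.050) and SRSF7 (0.17, SE 0.050) turned to -0.084, -0.11 and -0.33 with library sizes alone. For CLK2 in HT-29 the values under the agents overlapped, with a difference of -0.0014 and a 95% interval of -0.13 to 0.13, but with library sizes alone it was lower with CoCl2 (-0.50, edgeR FDR = 9.13e-08).

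In Caco-2 CLK3 led again (log2 fold change 0.91, SE 0.073, edgeR FDR = 3.11e-10), followed by SRSF5 (0.49, SE 0.079), SRSF1 (0.37, SE 0.11), SRSF2 (0.34, SE 0.078), CLK1 (0.32, SE 0.076) and SRSF6 (0.22, SE 0.073), and SRSF7 was lower with CoCl2 (-0.20, SE 0.076). Of these, SRSF1, SRSF6 and SRSF7 each lost the FDR threshold when a single library was left out. Under library sizes alone SRSF1 (0.21), SRSF2 (0.17), CLK1 (0.15) and SRSF6 (0.056) did not pass, CLK3 (0.74) and SRSF5 (0.33) were higher, and SRSF7 (-0.37) and CLK2 (-0.24, edgeR FDR = 0.0235) were lower with CoCl2. With TMM factors SRSF3, CLK2 and CLK4 did not pass, with 95% intervals of -0.021 to 0.28, -0.26 to 0.11 and -0.17 to 0.17.

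The responses of the lines were compared as an interaction over all 18 libraries, HT-29 treated minus control less the same difference in Caco-2. This fit used TMM factors over all 18 libraries, so its values are not exact differences of the fold changes given within each line. The all-gene median of the interaction was -0.13 for CoCl2 and 0.011 for Oxy. With library sizes alone this median was -0.33 and 0.047, and the share of genes past the FDR is not given here. At an FDR under 0.05 the difference was positive for all 4 kinases and negative for SRSF1, SRSF3 and SRSF7 with both agents. SRSF2 was negative with both too, but its CoCl2 value (-0.10) did not pass. For CoCl2, 4 of 10 members were higher and 3 lower at an FDR under 0.05, where 21.1% and 28.6% of 17921 genes tested were, and the members called numbered 3 higher and 0 lower, beside 7.79% and 13.8% of genes (with library sizes alone: 4 higher and 4 lower past the FDR). For Oxy, 4 of 10 members were higher and 5 lower at an FDR under 0.05, where 20.9% and 22% of 17921 genes tested were, and the members called numbered 0 higher and 1 lower, beside 8.96% and 6.24% of genes (with library sizes alone: 5 higher and 5 lower past the FDR). With CoCl2 the difference was 1.44, SE 0.088 for CLK3 (edgeR FDR = 1.68e-15), 1.04, SE 0.095 for CLK1 (edgeR FDR = 3.55e-11) and 1.01, SE 0.11 for CLK4 (edgeR FDR = 1.95e-09), the called genes; CLK1 and CLK4 lay close to the threshold, at 0.83 and 0.81 with library sizes alone, and only CLK3 was called without CoCl2 replicate 1 of Caco-2. CLK2 differed by 0.55, SE 0.11 (0.35 with library sizes alone), and SRSF3 and SRSF7 by -0.37, SE 0.088 and -0.40, SE 0.091 (-0.58 and -0.61). With Oxy, SRSF3 was the called gene (log2 fold change -1.07, SE 0.088, edgeR FDR = 5.78e-12), and SRSF6 (-0.97, SE 0.090), SRSF7 (-0.69, SE 0.091) and SRSF2 (-0.51, SE 0.095) also differed. SRSF5 did not pass for either agent, with 95% intervals, not adjusted for the number of genes, of -0.18 to 0.21 for CoCl2 and 0.019 to 0.41 for Oxy (edgeR FDR = 0.0718), nor did SRSF2 (-0.29 to 0.089) and SRSF6 (-0.024 to 0.34) for CoCl2. These 3 genes passed under some alternatives: SRSF6 for CoCl2 with DESeq2 size factors (0.26, edgeR FDR = 0.0134) and in DESeq2, and with library sizes alone SRSF2 for CoCl2 (-0.31, edgeR FDR = 0.00439) and SRSF5 for Oxy (0.25, edgeR FDR = 0.0258).

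**Figure D3:**
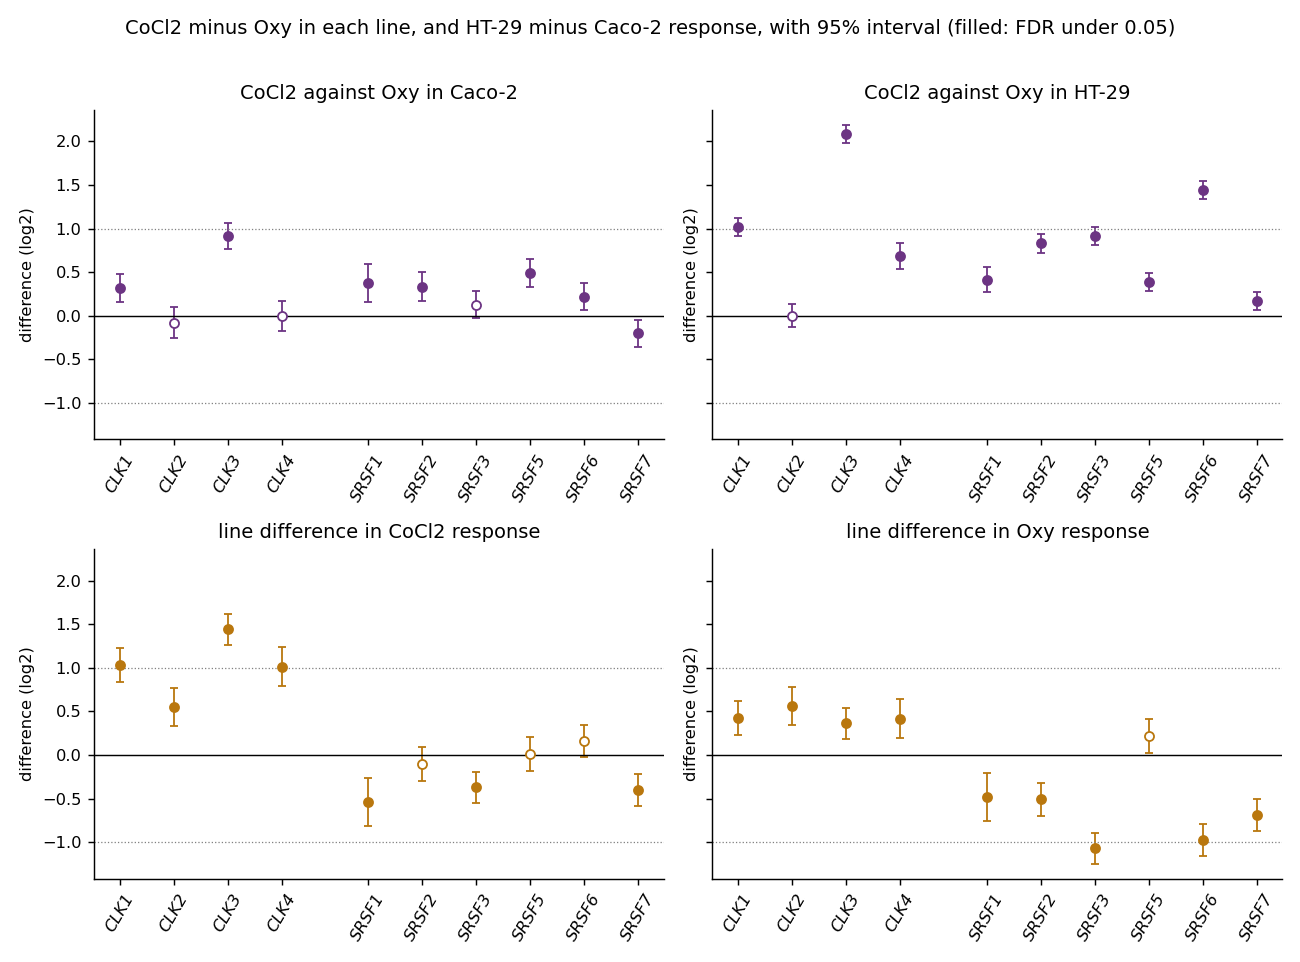
Difference in log2 units (y axes) between CoCl2 and Oxy within each line (upper panels) and between the HT-29 and Caco-2 responses (lower panels), with 95% intervals; filled points have an FDR under 0.05 and dotted lines mark 1 and -1. The 4 CLK genes lie above 0 in both lower panels, from 0.36 to 1.44, and SRSF3 reaches -1.07 for Oxy.

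Shares of the members' summed counts do not depend on the scaling of library sizes. The 4 CLK genes made up 18.8% ± 0.237 (SD, n = 3) of the 10 genes' counts in Caco-2 control and 18.2% ± 0.154 in HT-29 control. In HT-29 the share was 45.5% ± 0.559 with CoCl2 (44.9% to 46.0% in single libraries) and 37.2% ± 1.52 with Oxy (36.2% to 38.9%), and in Caco-2 it was 24.0% ± 0.664 with CoCl2 and 22.3% ± 0.763 with Oxy. In each line every treated library exceeded every control library. CLK3 alone went from 4.51% ± 0.268 to 21.8% ± 0.460 with CoCl2 in HT-29, and CLK1 from 9.57% ± 0.259 to 19.8% ± 0.449 with CoCl2 and 20.0% ± 1.31 with Oxy. The largest loss in percentage points was that of SRSF3 in HT-29, from 24.7% ± 0.215 in control to 14.0% ± 0.352 with CoCl2 and 15.3% ± 0.181 with Oxy. A share can fall where other members' counts grow, without a fall of the gene itself. With CoCl2 in HT-29 SRSF3 did not pass the test with TMM factors (log2 fold change -0.068). With library sizes alone its value was -0.70. In Caco-2 SRSF5 went from 24.5% ± 1.01 to 21.4% ± 1.55 with CoCl2 and 18.5% ± 0.994 with Oxy. The summed level of the 10 genes was 1323 ± 14.5 CPM in HT-29 control, 2223 ± 82.3 CPM with CoCl2 and 1082 ± 24.1 CPM with Oxy. Unlike the shares, this sum depends on the scaling: with library totals alone it was 1577 ± 25.7, 1709.7 ± 54.4 and 1175 ± 21.1 CPM.

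**Figure D4:**
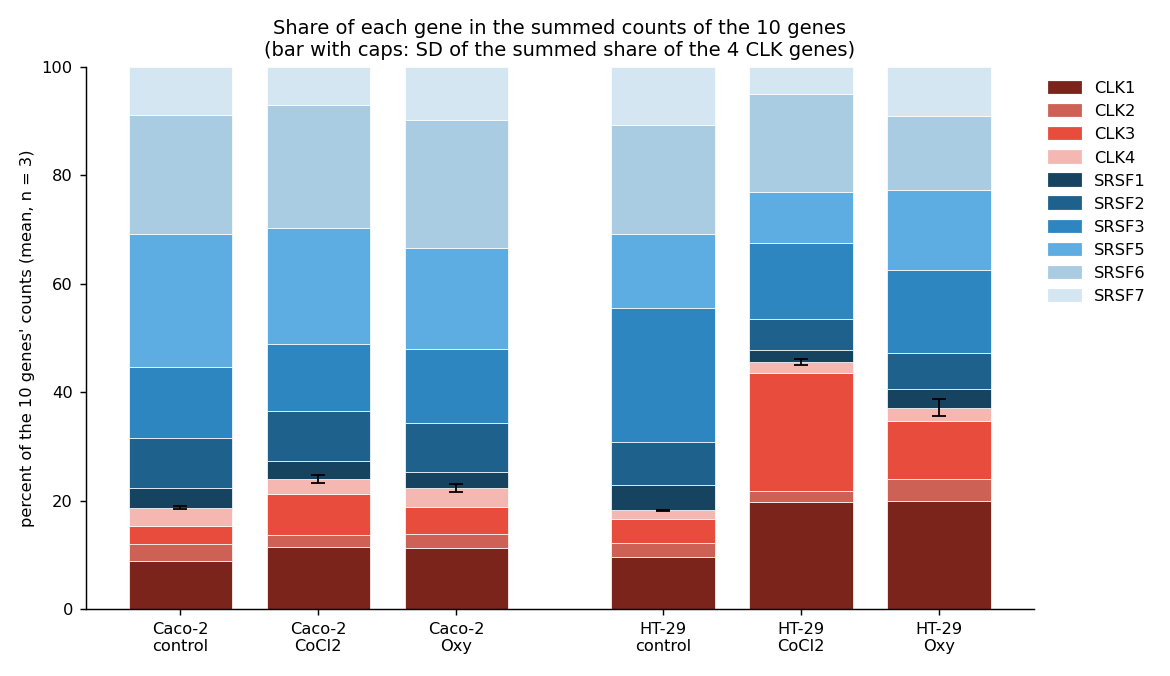
Mean percent (y axis, n = 3) of the summed counts of the 10 genes held by each gene in the 6 groups, with CLK genes in red and SRSF genes in blue; capped bars are the SD of the summed CLK share. The red part grows from 18.2% in HT-29 control to 45.5% with CoCl2.

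Other genes of the pathway were counted at an FDR under 0.05, with the median log2 fold change of each list. The medians of all genes were -0.029 with CoCl2 and -0.023 with Oxy in Caco-2. For HT-29 they were -0.032 with CoCl2 and 0.0057 with Oxy. A change past this FDR was common among all genes. Of all Caco-2 genes tested, 31.6% rose under CoCl2 while 33.1% fell. Under Oxy 25.7% rose there while 24.7% fell. Of all HT-29 genes tested, 40.7% rose under CoCl2 while 42.2% fell. Under Oxy 34.7% rose there while 34% fell. No such all-gene share is given here for library sizes alone, so those list counts lack this background. Of the other SR and SR-related proteins, the numbers that rose and that fell were 9 and 0 (median 0.27) of 13 tested with CoCl2 and 7 and 1 (median 0.23) with Oxy in Caco-2, and 10 and 3 (median 0.66) of 13 with CoCl2 and 7 and 6 (median 0.16) with Oxy in HT-29. With library sizes alone they were 2 and 4 (median -0.052) with CoCl2 and 4 and 3 (median 0.078) with Oxy in Caco-2, then 4 and 6 (median 0.029) and 5 and 6 (median 0.023) in HT-29. The SR genes outside the 10 members did not all fall with Oxy in HT-29: SRSF4 rose (log2 fold change 0.70, SE 0.050), as did SRRM1, a splicing coactivator (1.19, SE 0.060), whereas SRSF8 (-1.24, SE 0.061) and TRA2A, an activator related to SR proteins (-0.53, SE 0.051), fell. With CoCl2 in HT-29 SRSF9 (1.09, SE 0.051) and SRRM1 (1.20, SE 0.060) rose and SRSF8 (-0.77, SE 0.061) and SRSF10 (-0.42, SE 0.048) fell; under library sizes alone these values were 0.46, 0.57, -1.40 and -1.05.

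Of other kinases of SR proteins and their importer, the numbers that rose and that fell were 5 and 1 (median 0.23) of 7 tested with CoCl2 and 3 and 0 (median 0.13) with Oxy in Caco-2, and 4 and 2 (median 0.41) of 7 with CoCl2 and 1 and 2 (median 0.067) with Oxy in HT-29. Without TMM factors they were 2 and 1 (median -0.092) with CoCl2 and 1 and 2 (median -0.021) with Oxy in Caco-2, then 2 and 4 (median -0.22) and 1 and 2 (median -0.069) in HT-29. DYRK1A and DYRK1B, kinases of the same group as the CLK family, rose with CoCl2 in HT-29 (log2 fold changes 1.14, SE 0.051, and 1.32, SE 0.082), while SRPK1, which phosphorylates SR proteins mainly in the cytoplasm, fell with CoCl2 (-0.42, SE 0.049) and with Oxy (-0.18, SE 0.047). TNPO3, the import receptor of SR proteins, rose in Caco-2 with CoCl2 (0.59, SE 0.078) and Oxy (0.43, SE 0.078). Under library sizes alone DYRK1A, DYRK1B and SRPK1 with CoCl2 in HT-29 were 0.51, 0.69 and -1.06, SRPK1 with Oxy was -0.32, and TNPO3 in Caco-2 was 0.27 and 0.27.

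Of the hnRNP proteins, which often oppose SR proteins at exons, the numbers that rose and that fell were 6 and 3 (median 0.11) of 19 tested with CoCl2 and 5 and 6 (median -0.058) with Oxy in Caco-2, and 12 and 5 (median 0.35) of 19 with CoCl2 and 3 and 12 (median -0.23) with Oxy in HT-29. Without TMM factors they were 5 and 12 (median -0.21) with CoCl2 and 3 and 11 (median -0.21) with Oxy in Caco-2, then 3 and 15 (median -0.28) and 1 and 14 (median -0.37) in HT-29. HNRNPM (-1.11, SE 0.047) and HNRNPU (-0.98, SE 0.043) had the largest falls of this list with Oxy in HT-29, and HNRNPH2 the largest rise with CoCl2 (1.29, SE 0.049; 0.66 under library sizes alone). Of the U1, U2 and core spliceosome genes, the numbers that rose and that fell were 11 and 2 (median 0.24) of 16 tested with CoCl2 and 7 and 1 (median 0.16) with Oxy in Caco-2, and 11 and 3 (median 0.49) of 15 with CoCl2 and 3 and 6 (median 0.036) with Oxy in HT-29. With library sizes alone they were 4 and 5 (median -0.079) with CoCl2 and 4 and 4 (median 0.0012) with Oxy in Caco-2, then 3 and 7 (median -0.14) and 1 and 7 (median -0.10) in HT-29. SF3A2, a subunit of the U2 complex, rose with CoCl2 in HT-29 (1.02, SE 0.060) and Caco-2 (1.22, SE 0.10), by 0.38 and 0.90 under library sizes alone. Of the genes of nonsense-mediated decay, the pathway that removes transcripts with early stop codons, the numbers that rose and that fell were 4 and 1 (median 0.14) of 10 tested with CoCl2 and 6 and 1 (median 0.27) with Oxy in Caco-2, and 8 and 2 (median 0.34) of 10 with CoCl2 and 2 and 6 (median -0.16) with Oxy in HT-29. Without TMM factors they were 3 and 5 (median -0.18) with CoCl2 and 3 and 1 (median 0.12) with Oxy in Caco-2, then 1 and 7 (median -0.30) and 1 and 8 (median -0.30) in HT-29. SMG1, the kinase that starts decay, rose in HT-29 by 1.45, SE 0.046 with CoCl2 and by 0.43, SE 0.045 with Oxy (0.82 and 0.29 under library sizes alone), and UPF3B fell with Oxy (-0.96, SE 0.056).

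Stress genes and targets of the treatments were read as a check. With CoCl2 all 7 heat shock genes rose in each line, with a median of 1.30 in Caco-2 and one of 2.24 in HT-29. HSPA1A, the inducible chaperone HSP70, rose by 3.16, SE 0.081 and 3.34, SE 0.068 on the log2 scale. With library sizes alone 6 of the 7 passed in HT-29. With Oxy the numbers that rose and fell were 3 and 0 (median 0.18) in Caco-2 and 3 and 2 (median 0.0085) in HT-29, and without TMM factors 1 and 2 (median 0.030) and 1 and 4 (median -0.13). HIF targets and metallothioneins rose with CoCl2, all 8 genes tested in Caco-2 and all 9 in HT-29. With Oxy the numbers that rose and fell were 7 and 0 (median 1.98) in Caco-2 and 5 and 2 (median 0.42) in HT-29, or 7 and 0 (median 1.83) and 4 and 3 (median 0.28) without TMM factors. With Oxy in HT-29 NDRG1, a HIF target, rose (2.82, SE 0.079). The 2 genes that fell there with TMM factors were the metallothioneins MT2A (-1.10, SE 0.10) and MT1X (-0.94, SE 0.30). The part of heat shock or metal responses in the members' changes was not tested.

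**Figure D5:**
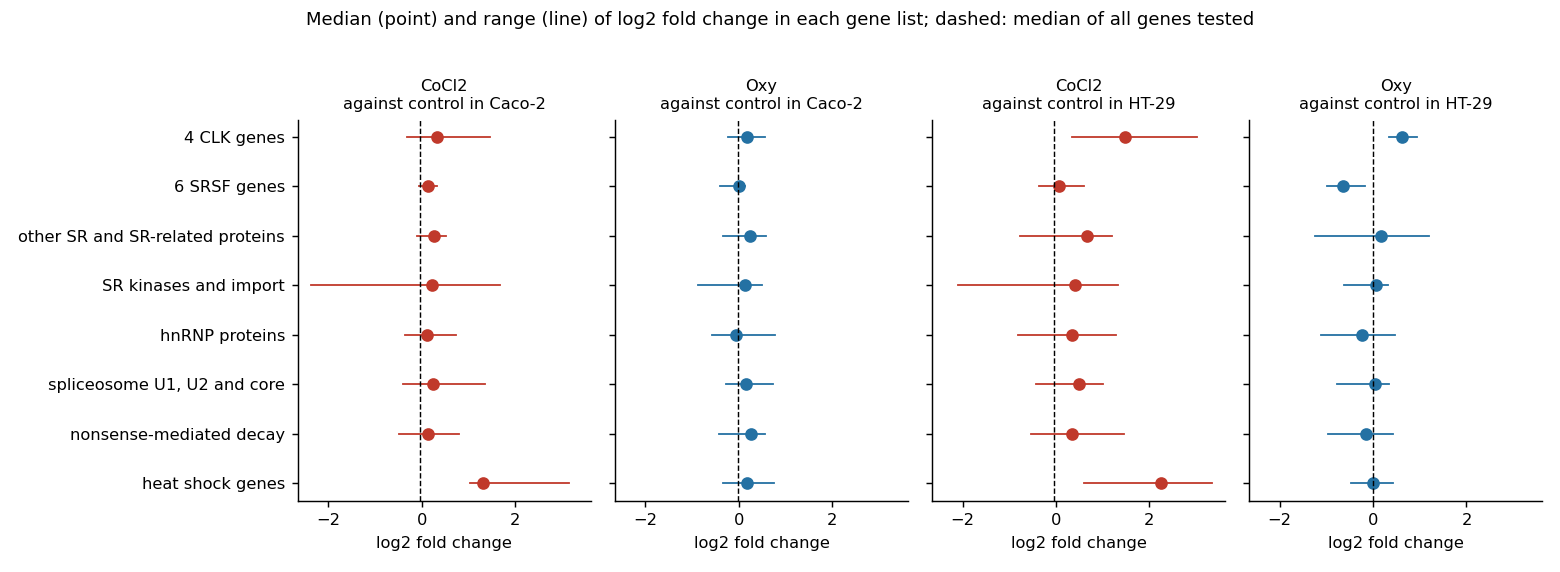
Median (points) and range (lines) of log2 fold change (x axes) over the tested genes of 8 lists (y axis) for each agent and line; the dashed line is the median of all genes tested. With Oxy in HT-29 the median of the 6 SRSF genes is -0.64 and that of the 4 CLK genes 0.62.

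Likeness was measured as Pearson's r of log2 CPM over the 18 mRNA libraries after subtracting each line's mean, and is a description with no test, since the points share the 6 groups, their library sizes and the TMM scaling. Over both lines the kinases CLK1 and CLK3 varied together (0.97), as did CLK1 and CLK4 (0.93), while CLK2 did not follow CLK1 (0.16) or CLK3 (0.060). In Caco-2 alone, with TMM factors, CLK1 rose with both agents and CLK4 did not pass the test with either. Among the SR genes, SRSF2 and SRSF6 were most alike (0.95), SRSF3 was near SRSF6 (0.86) and SRSF2 (0.84), and SRSF7 ran against CLK1 (-0.65). Of the 10810 genes with a mean of at least 100 counts per library, those most like CLK1 were CCDC93 (0.99), ATP6V1H (0.99) and MORF4L2 (0.99), and those most like SRSF3 were SFPQ (0.96), DDX18 (0.96) and UTP25 (0.96).

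The loci were checked for genes that could share reads, since the strand setting of the counting was not stated. On GRCh38 (GENCODE v44) CLK3 (chr15:74598500-74645414, plus strand) overlaps EDC3 on the opposite strand, CLK2 (chr1:155262868-155278491, minus strand) overlaps HCN3, and SRSF2 (chr17:76734115-76737333, minus strand) overlaps MFSD11. EDC3 held 613 to 823 counts in the HT-29 CoCl2 libraries, where CLK3 held 5608 to 7263, and its log2 fold change was 0.30, SE 0.060, edgeR FDR = 5.81e-05. HCN3 had a log2 fold change with Oxy in HT-29 of 1.43, SE 0.083, edgeR FDR = 2.18e-14, at 434 to 491 counts beside 772 to 866 for CLK2, so the rise of CLK2 there is uncertain. For MFSD11 it was, with CoCl2 in HT-29, 0.69, SE 0.077, edgeR FDR = 5.37e-09. The 8 processed pseudogenes named after SRSF1, SRSF3, CLK2 or CLK3 in the count table held at most 9 counts in any library.

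The loci of CLK1 (chr2:200853009-200864691, minus strand), CLK4 (chr5:178602664-178630615, minus strand), SRSF1 (chr17:58000919-58007346, minus strand), SRSF6 (chr20:43457893-43466046, plus strand), SRSF3 (chr6:36594353-36605600, plus strand), SRSF5 (chr14:69726900-69772005, plus strand) and SRSF7 (chr2:38743599-38751494, minus strand) overlap no named protein-coding gene in that annotation. Genes without a symbol overlap SRSF1 on both strands, SRSF6 on its own strand, and CLK3 and SRSF2 on the opposite strand. On their own strands CLK1 overlaps a Y_RNA gene and CLK4 overlaps RN7SKP70. Reads shared with these genes were not examined. MIR636 lies within SRSF2 on its strand, and its mature product hsa-miR-636 was nearly absent from the miRNA libraries, with 0 to 3 counts in the 9 libraries of Caco-2 and 0 to 18 in those of HT-29. Totals of the miRNA libraries ran from 34043 to 13092513 counts, so no comparison of hsa-miR-636 between groups was made.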

How the data were processed

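Polyadenylated RNA was sequenced by the authors in 18 libraries from a stranded mRNA kit, as single-end reads. The submitters' processing notes name cutadapt 2.10, STAR 2.7.5b, the build GRCh38.p13 and edgeR 3.30.3, and the annotation was GENCODE. The counting tool and its strand setting were not given in the sources used here. The deposited raw counts per gene were used as such. The deposited log2 values, made by the authors as log2(RPKM + 1) with TMM factors within each line, served for levels per length and for limma. The deposited miRNA counts served for hsa-miR-636 alone.

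Counts were fitted with edgeR 4.0.16 (R 4.3.3; filterByExpr, TMM, glmQLFit and glmQLFTest), within each line over 9 libraries, and over all 18 libraries for differences between lines. P-values were adjusted by Benjamini-Hochberg over all genes tested. The SE is the absolute log2 fold change divided by the square root of F, and intervals are 95%. A gene was called at an FDR under 0.05 with an absolute log2 fold change over 1, the thresholds of the study, which used DESeq2. The fits were tested on simulated data in which 200 genes changed, equally up and down. Far more genes changed in the real comparisons, so that simulation does not check the scaling of library sizes. The 10 genes, the gene lists and the tests were chosen with earlier results of these data known. In each list, named genes came from the 2 largest changes in each direction past the FDR with a mean of at least 100 counts. The most alike genes were the 3 with the highest r. Alternatives were library sizes alone, DESeq2 size factors, no filter, a replicate block, 1 fit over 18 libraries, DESeq2 1.42.0, limma 3.58.1 on the deposited log2 values, and leaving out each replicate. The study's methods call the replicates biological, and the labels do not say how they were made. The p-values set differences against the spread between these samples, which may be technical in part.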

Additional observations from a re-analysis of the deposited data

Results flagged for a closer look

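The responses of HT-29 and Caco-2 to the same agent differed by the interaction test of edgeR for 7 members with CoCl2 and 9 with Oxy, which is why these 16 values are listed. Of all 17921 genes tested, 21.1% were higher and 28.6% lower at an FDR under 0.05 for CoCl2, and 20.9% and 22% for Oxy. A difference between the lines is therefore common among all genes. For all genes the median difference between the lines was -0.13 with CoCl2 and 0.011 with Oxy in the fit over all 18 libraries. The members' values are differences of log2 fold changes, HT-29 minus Caco-2, from that fit and not from the fits within each line. They have 3 libraries in each of the 4 groups behind a value. With CoCl2 they were 1.44 for CLK3, 1.04 for CLK1, 1.01 for CLK4 and 0.55 for CLK2, and -0.54 for SRSF1, -0.40 for SRSF7 and -0.37 for SRSF3. With Oxy they were 0.56 for CLK2, 0.42 for CLK1, 0.42 for CLK4 and 0.36 for CLK3, and -1.07 for SRSF3, -0.97 for SRSF6, -0.69 for SRSF7, -0.51 for SRSF2 and -0.48 for SRSF1. With CoCl2, CLK4 rose in HT-29 and did not pass the test in Caco-2, and CLK2 fell in Caco-2 and rose in HT-29, where its sign turned with library sizes alone. The line and its culture state cannot be told apart.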

How the results depend on the processing

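The scaling of library sizes had the widest effect. With library sizes alone the log2 fold change turned in Caco-2 for SRSF1 (-0.24), SRSF2 (-0.021), SRSF3 (-0.13), SRSF5 (-0.23) and CLK4 (-0.29) with CoCl2, for SRSF3 (-0.088), SRSF6 (-0.047), SRSF7 (-0.012) and CLK4 (-0.12) with Oxy, and for SRSF3 (-0.037) between the agents. In HT-29 it turned for SRSF2 (-0.33), SRSF5 (-0.42), SRSF6 (-0.039) and CLK2 (-0.28) with CoCl2 and for SRSF1 (-0.084), SRSF5 (-0.11) and SRSF7 (-0.33) between the agents. Between the lines it turned for SRSF5 (-0.19) and SRSF6 (-0.048) in the CoCl2 response and for CLK1 untreated (0.0034). The called members then numbered 1 with Oxy in HT-29 (SRSF3), 1 between the agents in HT-29 (CLK3) and 1 in the line difference with CoCl2 (CLK3), and 4 members passed the FDR between the agents in Caco-2 (2 higher and 2 lower with CoCl2). The all-gene counts called higher and lower went from 1464 and 2283 to 870 and 3546 (CoCl2) and from 711 and 1165 to 500 and 1644 (Oxy) in Caco-2, from 2749 and 3775 to 1295 and 6250 and from 1502 and 1197 to 1225 and 1596 in HT-29, from 835 and 1033 to 602 and 1524 and from 1702 and 3032 to 783 and 5279 between the agents in Caco-2 and HT-29, and from 1396 and 2479 to 1005 and 3319 in the line difference with CoCl2. That construction moves all genes of a comparison by nearly 1 amount.

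With DESeq2 size factors and with DESeq2, SRSF3 was called with Oxy in HT-29 (1 member), 2 members were called between the untreated lines, CLK2 between the agents in HT-29 was 0.011 and 0.012, and SRSF2 in the line difference with CoCl2 was 0.0011 and 0.00072. DESeq2 left 3 members past the FDR with Oxy in Caco-2. With no filter SRSF5 in the line difference with CoCl2 was -0.0038 and CLK1 untreated 0.019. In limma CLK4 in Caco-2 was -0.012 with CoCl2 and -0.0054 with Oxy, and all-gene calls were 1098 against 3747 and 381 against 1876 in Caco-2, 2520 against 6524 and 744 against 2699 in HT-29, and 341 against 1868 and 1455 against 4734 between the agents. The cause of these changes was not tested. By the deposited length-scaled values the CLK share was 15.9%, 18.3% and 18.2% in Caco-2 control, CoCl2 and Oxy and 15.5%, 34.1% and 31.3% in HT-29.

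Same-numbered replicates did not deviate together (r -0.055 to 0.068 over 9 pairs in Caco-2 and -0.037 to 0.025 in HT-29), so the numbers only name the samples. With the replicate block 2 members were called between the untreated lines, CLK1 there was 0.040, SRSF1 and SRSF7 lost the FDR there, and no other member changed its call.

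Leaving out 1 replicate at a time moved SRSF1 within -0.017 to 0.20 and CLK4 within -0.0015 to 0.086 with CoCl2 in Caco-2, SRSF2 within -0.11 to 0.034 with Oxy in Caco-2, CLK4 within -0.034 to 0.051 and CLK2 within -0.059 to 0.039 for the agents in Caco-2 and HT-29, SRSF5 within -0.033 to 0.048 in the line difference with CoCl2, and CLK1 within -0.026 to 0.026 untreated. The members past the FDR with Oxy in Caco-2 ranged from 3 to 5 (3 without control replicate 1, control replicate 3 or Oxy replicate 3). The called members ranged from 1 to 3 in the line difference with CoCl2 (1 without Caco-2 CoCl2 replicate 1) and from 1 to 2 with Oxy (2 without Caco-2 control replicate 1 or Oxy replicate 3). The number of 3 replicates a group limits small differences such as those of CLK4 in Caco-2.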
